A study of Mus musculus with 6 samples.

Results

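The genes of the cytosolic ribosomal proteins were examined in RNA-sequencing data of Raw264.7 macrophages with and without knockdown of *Etv5*. A gene was taken when its symbol was Rpl, Rplp or Rps followed by a number, with at most a paralog suffix (a, x, y or l), so that pseudogenes with a -ps suffix and the *Rps6k* kinases stayed out. This gave 82 of the 24786 gene symbols of the table, 51 of the large subunit and 31 of the small subunit. Raw264.7 is a mouse macrophage line raised from a tumor that the Abelson leukemia virus induced, and the study bought it as a line. The sample labels give its strain as C57BL/6 and an age of postnatal day 21, copied here as labels only. Both groups were infected with lentivirus, which carried a control shRNA in 3 libraries (sh-NC, genotype label control) and an *Etv5*-directed shRNA in the other 3 (sh-*Etv5*, genotype label *Etv5* knockdown), and polyadenylated RNA was sequenced. ETV5 is a transcription factor of the ETS family. Neither the labels nor the methods say which of the study's shRNAs was sequenced or whether separate infections stand behind the 3 libraries per group, so the p-values here measure only the spread between libraries, which may be technical.

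The ribosome joins a small subunit, which reads the messenger RNA, to a large subunit, which forms the peptide bond and carries the tunnel through which the new chain leaves. Each subunit is built on ribosomal RNA in the nucleolus and takes up most of its proteins in single copy, with the stalk proteins as an exception, and unassembled ribosomal proteins are degraded. The mRNAs of these proteins are among the most abundant of growing cells, commonly start with a run of pyrimidines that ties their translation to mTOR signaling, and have many processed pseudogenes in mammalian genomes.

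The deposited unit was RPKM, a read density that is corrected for gene length and for the total of mapped reads. The depth of the libraries is unknown from these values, so no interval for counting error was computed. *Etv5* itself measured 9.18, 9.89 and 9.39 RPKM with sh-NC and 5.19, 4.91 and 5.28 RPKM with sh-*Etv5*. All 6 macrophage markers examined (*Adgre1*, *Cd68*, *Csf1r*, *Lyz2*, *Itgam* and *Fcgr1*) were detected, with a summed level of 3680 to 3769 RPKM in sh-NC and 2648 to 2731 RPKM in sh-*Etv5* libraries. Of these markers 4 were called lower and 2 higher, with log2 fold changes from -0.81 to 1.88, and *Lyz2*, at up to 2881 RPKM, made up most of the sum. The markers of T cells, B cells and adipocytes did not exceed 0.365 RPKM each. Those of fibroblasts summed to at most 0.0238 RPKM in sh-NC and to 0.764 to 1.10 RPKM in sh-*Etv5* libraries. The part of these marker differences in the results was not tested, and in bulk RNA fewer cells of a type and less RNA per cell cannot be told apart.

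Of the 82 ribosomal protein genes, 78 reached 1 RPKM in at least 3 of the 6 libraries and were tested, 48 of the large and 30 of the small subunit. On the log2(RPKM + 1) scale, limma with Benjamini-Hochberg adjustment over all 10738 genes tested called 41 of the 78 lower and 7 higher in sh-*Etv5* cells, and 30 did not pass the adjusted p threshold of 0.05. In the background of all genes tested, 41.0% were called lower and 33.3% higher, 74.3% in all, whereas of the ribosomal protein genes 52.6% were called lower and 8.97% higher, 61.5% in all. Their differences were small. The log2 fold changes ran from -0.67 to 0.20 with a median of -0.14, beside a median of -0.05 over all genes tested, and 61 of the 78 lay below 0. A called difference of more than 0.5 on the log2 scale was met by 1 of the 78, or 1.28%, whereas 30.9% of all genes tested and 36.1% of the 477 other genes with a mean of at least 100 RPKM met it. The middle 50% of the ribosomal protein genes lay between -0.21 and -0.03, and that of the other genes tested between -0.34 and 0.28.

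All sh-*Etv5* libraries lay below all sh-NC libraries in 35 of the 78 genes (42.1% of all genes tested) and above them in 6 (34.3% of all genes tested), and the groups overlapped in 37. The count of rises rested on single libraries. It was 3 in place of 7 without sh-*Etv5* replicate 3, without sh-NC replicate 1 or without sh-NC replicate 3, and 4 without sh-*Etv5* replicate 1. It was also 2, beside 59 falls, when libraries were scaled to the same sum over the genes that do not encode ribosomal proteins.

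The largest falls were in the large subunit. *Rpl37a*, a zinc-binding protein of that subunit, measured 100.5, 100.2 and 98.5 RPKM with sh-NC and 58.2, 59.7 and 69.0 RPKM with sh-*Etv5*. The groups were far apart, and sh-*Etv5* replicate 3 was the highest of its group. The means were 99.7 ± 1.05 and 62.3 ± 5.84 RPKM (SD, n = 3). On the log2 scale this fall amounted to -0.67 ± 0.06 (SE, as in all log2 values that follow; limma adjusted p = 7.84e-07). The gene lies on the plus strand of chromosome 1 from 72711290 to 72713813 in GRCm38.

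*Rpl7a* was at 284.6, 274.3 and 278.8 RPKM in sh-NC and at 206.7, 196.8 and 207.1 RPKM in sh-*Etv5* libraries, and the log2 fold change was -0.45 ± 0.03 (limma adjusted p = 2.92e-07). Within its bounds lie 3 annotated small nucleolar RNAs, which guide the modification of ribosomal RNA. *Rpl36a* was at 85.0, 77.8 and 79.3 RPKM in sh-NC and at 59.0, 55.8 and 61.7 RPKM in sh-*Etv5* libraries, and the log2 fold change was -0.45 ± 0.05 (limma adjusted p = 5.25e-06). *Rpl3*, which reaches into the peptidyl transferase center, was at 181.7, 177.8 and 179.6 RPKM in sh-NC and at 129.7, 130.8 and 139.6 RPKM in sh-*Etv5* libraries, and the log2 fold change was -0.43 ± 0.04 (limma adjusted p = 8.99e-07). In each of these genes the groups did not overlap, and the gap between them exceeded the range within either group. The call of all 4 held under all 18 alternative settings tried. Of the 50-base stretches of the annotated transcripts, 38.5% in *Rpl37a*, 81.2% in *Rpl7a*, 85.5% in *Rpl36a* and 85.6% in *Rpl3* also occur in other annotated genes. The levels of these genes thus depend on how shared reads were assigned.

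In the small subunit the largest fall was that of *Rps15*, a protein of the head of the subunit. It was at 704.8, 702.0 and 713.5 RPKM in sh-NC and at 532.5, 506.0 and 566.2 RPKM in sh-*Etv5* libraries, and the log2 fold change was -0.40 ± 0.04 (limma adjusted p = 4.12e-06). *Rps27*, a zinc finger protein, was at 133.3, 140.7 and 124.8 RPKM against 106.3, 100.5 and 115.7 RPKM, and the log2 fold change was -0.30 ± 0.06 (limma adjusted p = 0.000456). The groups stood apart in both genes, more narrowly in *Rps27*.

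The rises were smaller than the falls. *Rpl12*, which sits at the base of the stalk where elongation factors bind, was at 179.6, 177.6 and 184.2 RPKM in sh-NC and at 208.6, 200.2 and 211.9 RPKM in sh-*Etv5* libraries, and the log2 fold change was 0.20 ± 0.03 (limma adjusted p = 0.000301). *Rps2*, at the entry of the mRNA channel, was at 148.9, 151.6 and 137.2 RPKM against 171.5, 159.7 and 166.2 RPKM, and the log2 fold change was 0.18 ± 0.04 (limma adjusted p = 0.00271). *Rps20*, a protein of the head of the small subunit, was at 62.6, 63.4 and 62.2 RPKM against 68.3, 67.9 and 77.2 RPKM, and the log2 fold change was 0.18 ± 0.05 (limma adjusted p = 0.00673). The sh-*Etv5* libraries lay above the sh-NC libraries in these 3 genes. *Lrsam1*, whose exons overlap those of *Rpl12* on the opposite strand, rose from 2.79 ± 0.25 to 6.72 ± 0.36 RPKM (SD, n = 3), and as the library kit does not mark strand, reads of the overlap cannot be told apart.

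The other 4 rises were at the edge of the test. *Rps23*, a protein of the decoding center, was at 337.4, 344.4 and 328.2 RPKM in sh-NC and at 343.4, 370.3 and 413.8 RPKM in sh-*Etv5* libraries, so the groups overlapped and sh-*Etv5* replicate 3 was far above the others. Its limma adjusted p was 0.0292, and those of *Rplp2*, *Rpl4* and *Rpl24* were 0.0384, 0.036 and 0.0495 with log2 fold changes of 0.11, 0.09 and 0.08. None of these 4 passed the test without sh-*Etv5* replicate 3, without sh-NC replicate 1 or without sh-NC replicate 3.

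**Figure D1:**
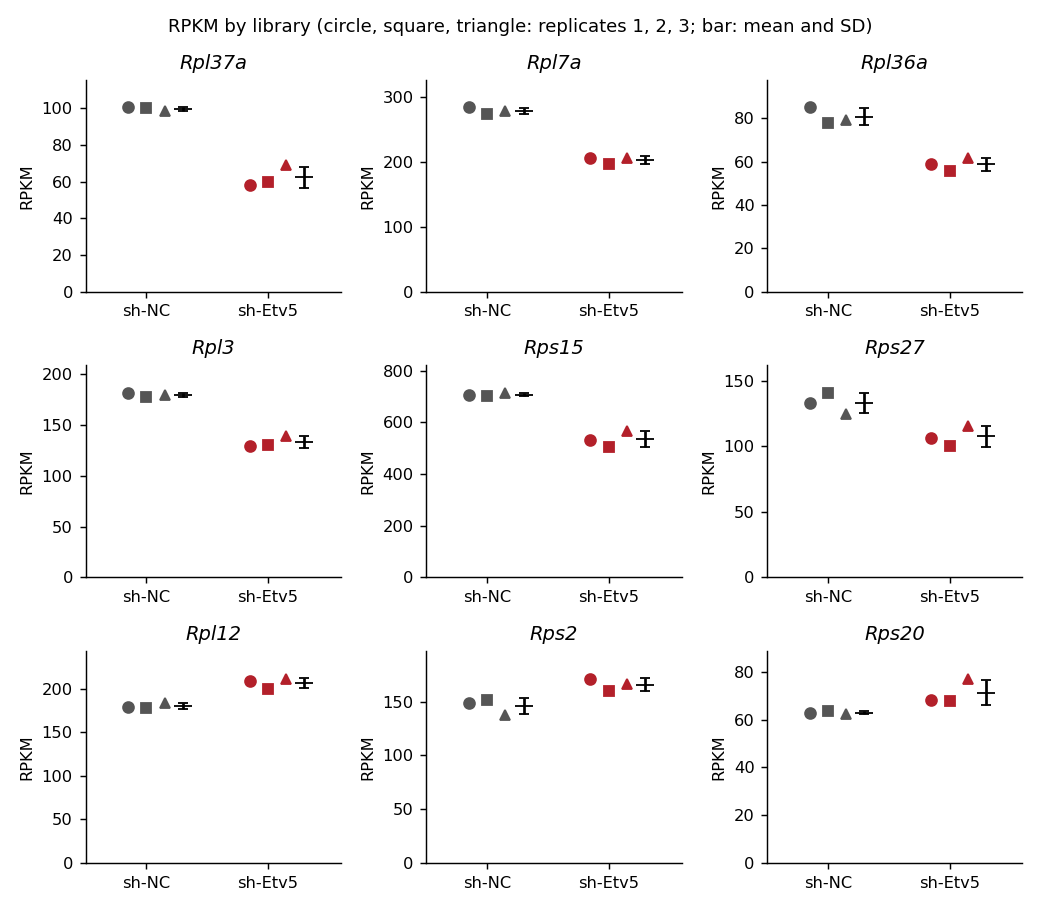
RPKM (linear axes from 0) of 9 ribosomal protein genes in the 3 sh-NC (grey) and 3 sh-*Etv5* (red) libraries, with circles, squares and triangles for replicates 1, 2 and 3 and the black bar for the mean and SD. The first 6 genes are lower in all sh-*Etv5* libraries, such as *Rpl37a* with 58.2 to 69.0 RPKM against 98.5 to 100.5 RPKM, and *Rpl12*, *Rps2* and *Rps20* are higher in all of them.

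Proteins that work side by side in the ribosome did not always share 1 log2 fold change. Among the stalk proteins, which recruit the translation factors, *Rplp0* had a log2 fold change of 0.03 (95% interval -0.06 to 0.11) and *Rplp1* of -0.01 (-0.09 to 0.07), and neither passed the test, while *Rplp2* was called higher as given above. The interval of *Rplp2*, 0.01 to 0.20, overlapped both of these. Such an overlap does not decide whether genes measured in the same libraries differ, and a difference among the stalk proteins was not tested. *Rpl5* and *Rpl11* enter the large subunit together, and outside the ribosome both bind *Mdm2*, the ubiquitin ligase of p53. *Rpl5* was at 132.0, 129.2 and 133.7 RPKM in sh-NC and at 134.6, 122.2 and 132.5 RPKM in sh-*Etv5* libraries, with overlapping groups and a log2 difference of -0.02 ± 0.04 (limma adjusted p = 0.639). *Rpl11* was at 345.4, 338.3 and 335.5 RPKM against 256.6, 252.4 and 284.9 RPKM, with groups well apart and a log2 difference of -0.36 ± 0.04 (limma adjusted p = 2.16e-05). The 95% intervals of their log2 fold changes, -0.11 to 0.07 and -0.46 to -0.26, did not meet. Of the 50-base stretches of the annotated transcript, 93.8% in *Rpl5* and 62.2% in *Rpl11* also occur in other annotated genes. Exons of *Rpl5* also overlap those of a gene on the opposite strand. Both levels, and so the contrast, depend on how shared reads were assigned.

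*Rps6*, the ribosomal substrate of the kinase downstream of mTOR, showed -0.08 on the log2 scale, and *Rps27a*, which is made as a fusion with ubiquitin, had a log2 fold change of 0.05, and neither passed the test (limma adjusted p = 0.0901 and 0.384). *Rps3* and *Rps14*, which line the path of the mRNA on the small subunit, fell by 0.10 each on the log2 scale (limma adjusted p = 0.0296 and 0.0161), and the call of *Rps3* was lost without sh-*Etv5* replicate 1 or 2 or without sh-NC replicate 1 or 2, that of *Rps14* without sh-NC replicate 1. *Rpl13a*, which also has a role in translational silencing in interferon-treated macrophages, and *Rpl10*, which joins the large subunit late, did not pass the test either, at -0.04 and -0.08 (limma adjusted p = 0.259 and 0.132). The fall of *Rpl39*, a small protein that lines the exit tunnel, was 0.36 on the log2 scale (limma adjusted p = 0.000603).

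**Figure D2:**
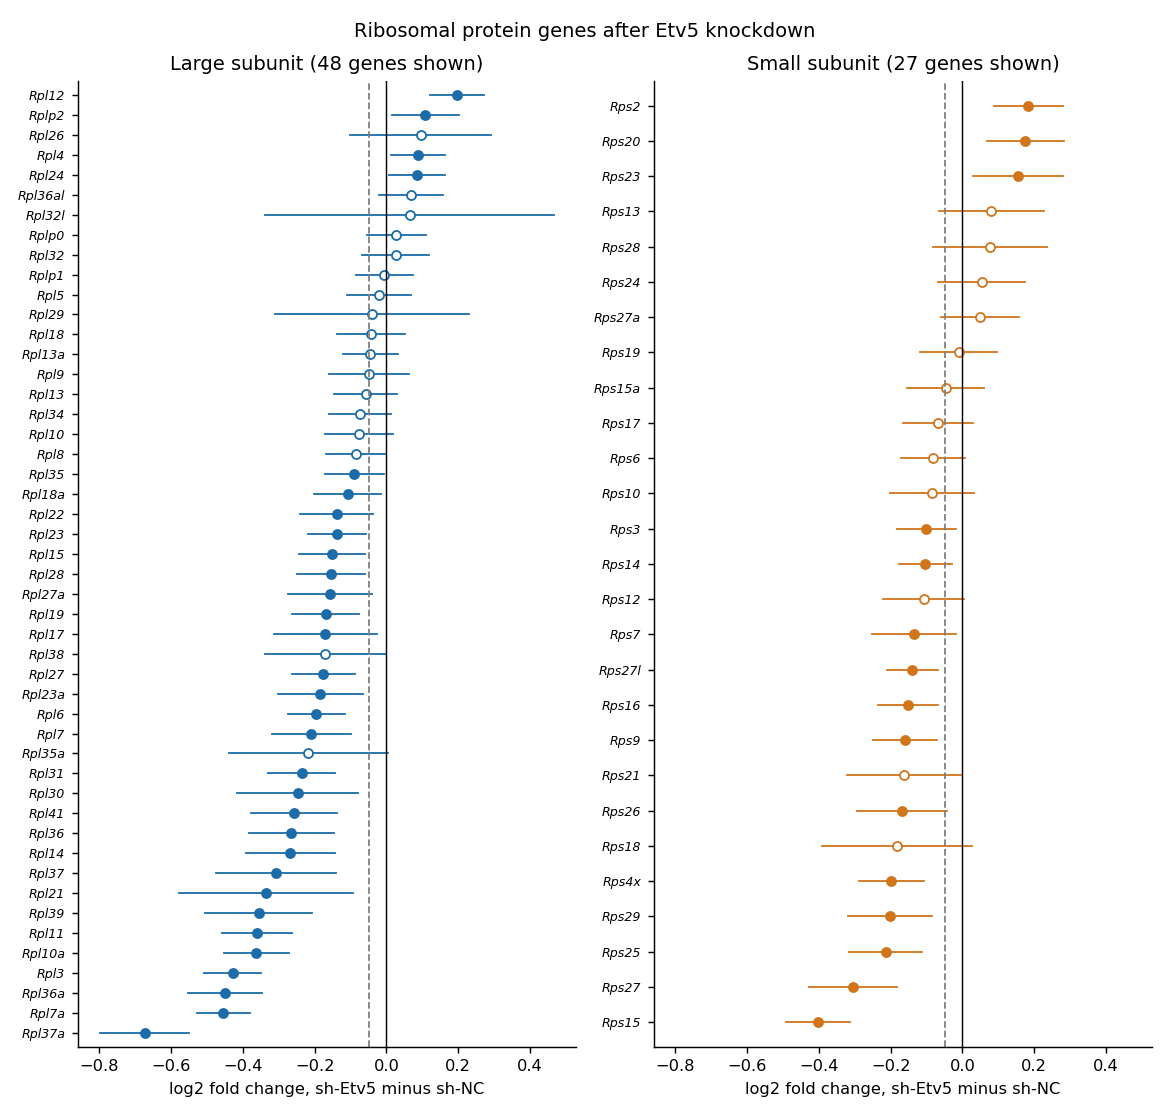
Difference of mean log2(RPKM + 1), sh-*Etv5* minus sh-NC, of the 48 tested genes of the large subunit and of 27 of the 30 of the small subunit, with 95% intervals from limma (the others are not reported here); filled points passed the adjusted p threshold, the solid line is 0 and the dashed line the median of all 10738 genes tested, at -0.05. *Rpl37a* stands apart at -0.67, and most points lie below 0.

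Several ribosomal proteins have a paralog that can take their place in the ribosome. *Rpl36a*, an X-linked gene with 5 exons (134585654 to 134588062, plus strand), and *Rpl36al*, a gene with 1 exon on chromosome 12 (69182731 to 69184083, minus strand), had the most similar coding sequences of the pairs examined. They shared 279 of 318 coding bases, or 87.7%, and the first 60 coding bases are shown to make visible how densely the letters that tell the pair apart are spaced. The capitals mark the 11 positions that differ.
Rpl36a: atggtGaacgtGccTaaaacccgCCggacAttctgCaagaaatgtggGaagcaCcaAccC
Rpl36al: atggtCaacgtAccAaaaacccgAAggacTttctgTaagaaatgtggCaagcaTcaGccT
The fitted changes of the pair lay apart. *Rpl36al* was at 193.9, 203.9 and 200.2 RPKM in sh-NC and at 204.2, 202.0 and 221.4 RPKM in sh-*Etv5* libraries, with overlapping groups and a log2 fold change of 0.07 (95% interval -0.02 to 0.16), whereas *Rpl36a* fell as given above. The ratio of *Rpl36a* to *Rpl36al* within a library, which does not depend on the scaling of the library, was 0.439, 0.382 and 0.396 in sh-NC and 0.289, 0.277 and 0.279 in sh-*Etv5* libraries. The groups did not overlap, and the exact permutation test (two-sided, n = 3 per group) gave p = 0.1, the smallest value that 3 against 3 libraries allow. Of the 50-base stretches of the annotated transcript, 85.5% in *Rpl36a* and 24.9% in *Rpl36al* also occur in other annotated genes. The level of *Rpl36a* and this ratio thus depend on how shared reads were assigned.

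Of the other pairs, *Rpl22l1* and *Rpl7l1* had larger fitted falls than *Rpl22* and *Rpl7*. *Rpl22l1* was at 72.4, 68.8 and 73.9 RPKM in sh-NC and at 46.8, 48.7 and 49.1 RPKM in sh-*Etv5* libraries, and the log2 fold change was -0.56 ± 0.04 (limma adjusted p = 1.83e-07), beside -0.14 for *Rpl22* (limma adjusted p = 0.0186). *Rpl7l1*, a homolog of *Rpl7* found mostly in nucleolar precursors, changed by -0.55 ± 0.05 (limma adjusted p = 9.22e-07), beside -0.21 for *Rpl7*. The ratio of *Rpl22l1* to *Rpl22* fell from 0.688 ± 0.0443 to 0.510 ± 0.031 and that of *Rpl7l1* to *Rpl7* from 0.0911 ± 0.00294 to 0.0711 ± 0.00194 (SD, n = 3; exact permutation p = 0.1 each). *Rps27l*, which was higher than *Rps27* in RPKM, had groups that overlapped in its ratio to *Rps27* (2.10 to 2.41 in sh-NC and 2.40 to 2.62 in sh-*Etv5*, exact permutation p = 0.2). Reads of *Rps27* cannot be told apart from those of its processed copy *Rps27rt*, which had a mean of 193.4 RPKM. The order of *Rps27l* and *Rps27* and the size of their ratio thus depend on how shared reads were assigned. Over these 4 ratios the Benjamini-Hochberg adjusted values were 0.133 to 0.2.

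The remaining paralogs, among them ones with tissue-restricted expression, were near or at 0. *Rpl10l* and *Rpl39l*, known from the testis, were listed at 0 in all 6 libraries, *Rps4l*, which the annotation lists as a pseudogene, at 0.103 RPKM in 1 library and at 0 in the others, and *Rpl3l*, known from striated muscle, at 0.0601 to 0.227 RPKM in sh-NC and 0.181 to 0.338 RPKM in sh-*Etv5* libraries. These 4 were not tested. Their counterparts were abundant, such as *Rpl10* with a mean of 318.8 RPKM and *Rps4x* with 545.0 RPKM, which fell by 0.20 on the log2 scale (limma adjusted p = 0.00107).

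The level in RPKM, which is per length, differed 749-fold between the tested genes. The mean over the 6 libraries was highest for *Rplp1* with 1441 RPKM, *Rpl4* with 1309 RPKM and *Rpl8* with 1136 RPKM in the large subunit, and *Rps9* with 745.5 and *Rps26* with 694.6 RPKM were among the highest of the small subunit. *Rps9* and *Rps26* fell by 0.16 and 0.17 on the log2 scale (limma adjusted p = 0.00369 and 0.0193), and the groups overlapped in *Rps26*, whose call was lost without sh-*Etv5* replicate 1 or 2 or without sh-NC replicate 1. At the other end stood *Rpl32l* with 1.92 RPKM, which the annotation lists as a pseudogene, *Rpl35a* with 2.95 to 4.85, *Rpl29* with a mean of 4.96, *Rps28* with 13.5, *Rps18* with 14.7 and *Rps15a* with 30.1 RPKM. In all, 12 genes were below 50 RPKM and 15 above 500 RPKM.

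Most of these genes share sequence with other genes. Of the 50-base stretches of the annotated transcripts, a median of 49.3% per gene also occurred in a transcript of another annotated gene, and 77 of the 78 tested genes shared at least 1 such stretch. In 56 members the gene that shared the most was a pseudogene. *Rps18* shared 86.7% of its stretches and 253 other genes held at least 1 of them. Across the 78 genes, which were measured in the same libraries and are not independent replicates, the level correlated weakly with the share (Spearman's rho = -0.158) and more with the number of genes that held a shared stretch (rho = -0.403). Processed copies were at times above their parents in RPKM, as with *Rpl37rt* at 309.9 against 32.1 RPKM for *Rpl37* and *Rpl34-ps1* at 323.6 against 199.5 RPKM for *Rpl34* (pairs named after their values were seen).

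Of 8 pairs of a processed copy and its parent, 2 had a ratio that hardly varied between libraries. *Rpl34-ps1* over *Rpl34* was 1.614 to 1.616 in the sh-NC and 1.624 to 1.635 in the sh-*Etv5* libraries, and *Rps27rt* over *Rps27* was 1.609 to 1.616 and 1.598 to 1.607. The reads of these 2 pairs cannot be told apart in these values, and the differences between groups were below 2 in 100 although the groups did not overlap (exact permutation p = 0.1, adjusted over the 8 pairs 0.4). The groups overlapped in the other pairs, whose ratios varied more, such as 1.88 to 2.45 for *Rps15a-ps6* over *Rps15a*, 0.283 to 0.377 for *Rpl31-ps12* over *Rpl31* and 9.30 to 10.2 for *Rpl37rt* over *Rpl37*. Among the 17 tested genes that shared at most 30% of their stretches, 7 were called lower and 2 higher (41.2% and 11.8%). Their median log2 fold change was -0.09. Among the 61 that shared more, 34 were called lower and 5 higher (55.7% and 8.2%) with a median of -0.15. Of all genes tested 41.0% were called lower, near the share of the 17 genes, and 33.3% higher. The 30% limit is relative to transcript length, so a long transcript can pass it although many genes hold a part of it. *Rps20*, among the rises within the limit, is annotated with 3706 bases, and 51 other genes held at least 1 of its stretches.

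**Figure D3:**
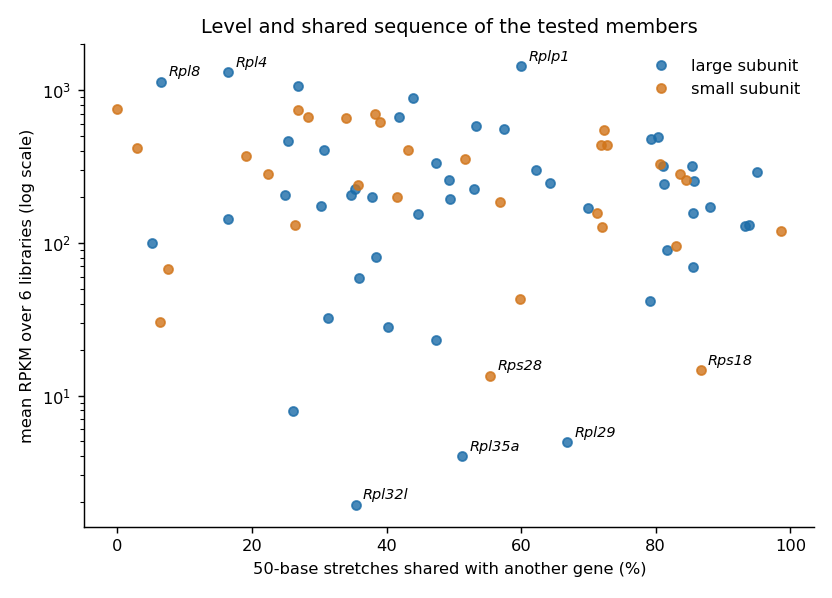
Mean RPKM over the 6 libraries (log scale) of the 78 tested ribosomal protein genes against the share of their 50-base stretches that occur in another annotated gene, in blue for the large and orange for the small subunit. High and low levels occur at small and large shares: *Rpl8* with 1136 RPKM and *Rps15a* with 30.1 RPKM share 6.49% and 6.37% of their stretches, and *Rplp1* with 1441 RPKM and *Rpl29* with 4.96 RPKM both share more than 50%. The share is relative to the annotated transcript, which is 5179 bases long for *Rps15a*, and 64 other genes held at least 1 of its stretches.

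The comparison of the subunits depended on the measure. In the large subunit 27 of 48 genes were called lower and 4 higher (56.2% and 8.33%), with a median log2 fold change of -0.15. In the small subunit 14 of 30 were called lower and 3 higher (46.7% and 10.0%), with a median of -0.11. Of all genes tested 41.0% were called lower, near the share of the small subunit, and 33.3% higher. The mean of log2(RPKM + 1) over the large subunit minus that over the small subunit was -0.38, -0.38 and -0.37 in the sh-NC and -0.42, -0.44 and -0.44 in the sh-*Etv5* libraries. On this measure, in which each gene counts the same, the large subunit was lower relative to the small one in all sh-*Etv5* libraries.

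The ratio of the summed RPKM, in which abundant genes dominate, moved the other way. Large over small was 1.547, 1.545 and 1.542 in the sh-NC and 1.599, 1.572 and 1.556 in the sh-*Etv5* libraries. The groups did not overlap, and the mean ratio was 1.99% higher in sh-*Etv5*. This rested on *Rplp1*, *Rpl4* and *Rpl8*, without which the difference in the ratio, sh-*Etv5* minus sh-NC, was -0.00456. Among the genes that shared at most 30% of their stretches the order of the medians also turned, at -0.06 for 8 genes of the large and -0.10 for 9 genes of the small subunit.

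Together the ribosomal protein genes held 8.06, 8.02 and 7.88% of the summed RPKM in the sh-NC and 7.06, 6.90 and 7.37% in the sh-*Etv5* libraries. The groups did not overlap, and the mean share fell from 7.99 ± 0.09% to 7.11 ± 0.24% (SD, n = 3). A part of the difference was a larger denominator, as *Spp1* alone rose from 0.708% to 3.43% of the summed RPKM. Without *Spp1* the share was 8.04 ± 0.09% in sh-NC and 7.36 ± 0.25% in sh-*Etv5*.

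**Figure D4:**
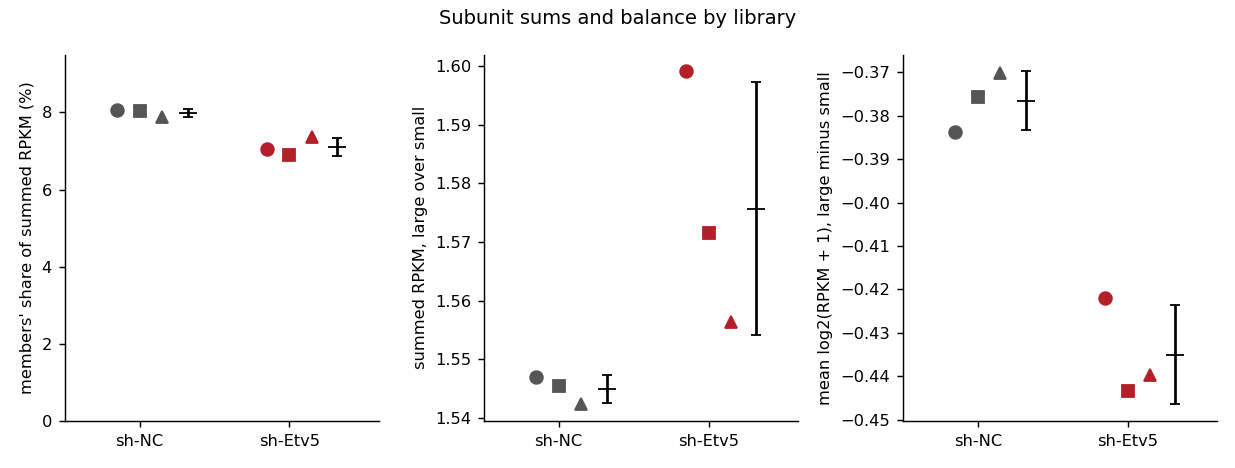
Share of the summed RPKM held by the 82 ribosomal protein genes (left), summed RPKM of the large over the small subunit (middle) and mean log2(RPKM + 1) of the large minus the small subunit (right) in each library, with circles, squares and triangles for replicates 1, 2 and 3 and bars for the mean and SD; the middle and right axes do not start at 0. All sh-*Etv5* libraries are lower in the left and right panels and higher in the middle panel, with ratios of 1.556 to 1.599 against 1.542 to 1.547.

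The sh-*Etv5* libraries also differed among themselves in these genes. Replicate 3 was the highest of its group in 67 of the 78 tested genes and replicate 2 the lowest in 60, whereas over all genes tested replicate 3 was the highest in 37.8%. The median of replicate 3 minus the other sh-*Etv5* libraries was 0.12 on the log2 scale over the ribosomal protein genes, beside 0.0036 over all genes tested, a distance close to the median log2 fold change between the groups. Short transcripts of other genes moved the same way to a lesser degree. That median was 0.04 over the 378 other genes with transcripts of up to 600 bases and -0.04 over the 3246 of more than 4000 bases. The part of transcript length in the results was not tested. The 378 short other genes had a median log2 fold change between the groups of -0.21, lower than that of the 19 ribosomal protein genes of this length, -0.18. Above 600 and up to 1000 bases the medians were -0.09 for 31 ribosomal protein genes and -0.02 for 536 others, and from there to 2000 bases -0.15 for 23 and 0.01 for 2216 others, so that at these lengths, which cover most members, the ribosomal protein genes had the lower median. Without sh-*Etv5* replicate 3, 51 of the 78 genes were called lower with a median of -0.17.

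Ribosomal proteins whose symbols the rule does not match also differed among themselves. *Fau*, made as a fusion of a ubiquitin-like protein with a small subunit protein, was at 77.0, 71.3 and 72.8 RPKM in sh-NC and at 89.9, 90.6 and 89.1 RPKM in sh-*Etv5* libraries, and the log2 fold change was 0.28 ± 0.04 (limma adjusted p = 3.26e-05). *Rpsa*, *Rps3a1* and *Rack1* did not pass the test, with log2 fold changes of -0.08, -0.11 and 0.02.

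The machinery around the ribosome was described from lists of the same table. Of 97 genes of ribosome biogenesis and RNA polymerase I, 61 were called lower and 12 higher (62.9% and 12.4%), with a median log2 fold change of -0.20, beside 41.0% and 33.3% with a median of -0.05 over all genes tested. The members with the largest changes were *Nop10*, a protein of the pseudouridylation complex, which fell from 93.9 ± 4.93 to 46.8 ± 1.28 RPKM (SD, n = 3; log2 fold change -0.99), *Ubtf*, which activates transcription of the ribosomal RNA genes (-0.93), and *Rrp1b*, a nucleolar processing factor (-0.69; limma adjusted p = 4.22e-09, 3.00e-09 and 7.68e-08). Of the 78 mitochondrial ribosomal proteins, 38 were called lower and 16 higher (48.7% and 20.5%) with a median of -0.11, beside 41.0% and 33.3% of all genes tested, and the largest change was that of *Mrps6* (-1.31, limma adjusted p = 6.90e-09). The share of genes with a log2 fold change within 0.25 of 0 was 79.5% for the cytosolic ribosomal proteins, 64.1% for the mitochondrial ones and 50.5% for ribosome biogenesis, beside 41.4% of the other genes tested.

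Of 49 translation factors, 22 were called lower and 13 higher (44.9% and 26.5%, near the 41.0% and 33.3% of all genes tested) with a median of -0.06. *Gspt1*, the release factor that binds GTP, and *Eif4b*, a helicase cofactor, fell by 0.79 and 0.66 on the log2 scale, whereas *Eif4g2*, a scaffold of initiation without cap binding protein, rose by 0.68 (limma adjusted p = 5.65e-09, 8.09e-09 and 1.59e-08). Of 29 regulators of ribosomal protein synthesis or growth, 16 were called lower and 8 higher (55.2% and 27.6%, beside 41.0% and 33.3% of all genes tested), and the 3 largest changes were rises. *Myc*, which activates ribosomal genes, rose from 0.341 ± 0.0394 to 12.0 ± 0.194 RPKM (SD, n = 3), *Mdm2* from 22.4 ± 0.84 to 64.7 ± 1.67 RPKM and *Eif4ebp1*, a repressor of cap-dependent initiation under mTOR, from 69.4 ± 2.39 to 182.8 ± 4.81 RPKM (limma adjusted p = 7.42e-12, 1.13e-10 and 8.95e-11). These genes were far outside the range of the ribosomal protein genes that the symbol rule matches, whose largest rise was 0.20.

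**Figure D5:**
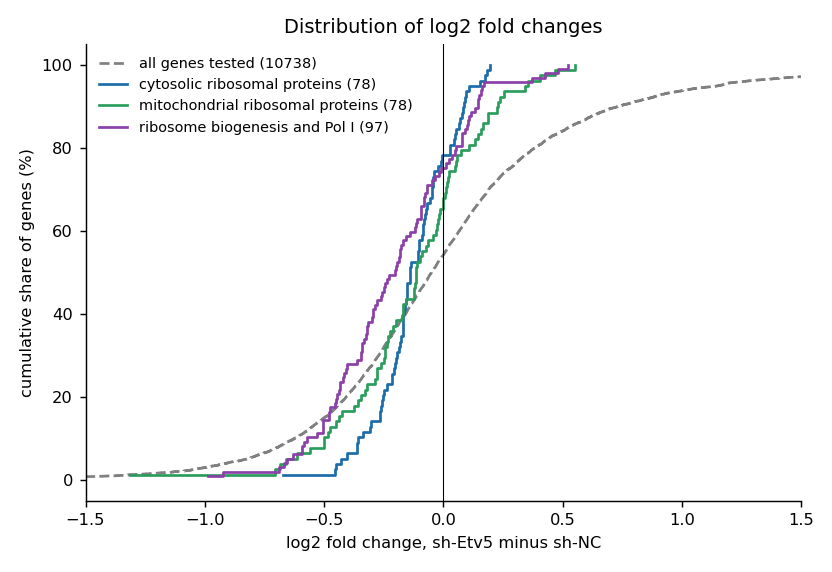
Cumulative share of genes (percent) against the log2 fold change (sh-*Etv5* minus sh-NC, log2(RPKM + 1) scale, shown from -1.5 to 1.5) for the cytosolic ribosomal proteins, the mitochondrial ribosomal proteins, ribosome biogenesis and all genes tested. The curve of the cytosolic ribosomal proteins is the steepest, running from -0.67 to 0.20 with its median at -0.14.

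The promoters were compared because the knocked-down factor belongs to the ETS family, which binds GGAA cores. RefSeq promoters (GRCm38.p6, 250 bases before to 50 after the start) were at hand for 61 of the 82 ribosomal protein genes. The letters CCGGAA, on either strand, occurred in 32 of the 61, or 52.5%, beside 16.7% of the 27025 genes with a promoter and 34.7% of the 8259 other genes tested. The pyrimidine run CTTTC on the gene's strand occurred within 20 bases of the start in 31.1%, beside 6.44% of all genes and 5.53% of the other genes tested. TATAAA, on either strand, was found in 11.5%, between the 15.7% of all genes and the 7.97% of the other genes tested. AAGATGGC, the core bound by YY1, was found on either strand in 8.20%, beside 3.19% and 5.92%.

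Of the 31 tested ribosomal protein genes with CCGGAA, 19 were called lower and 2 higher, with a median log2 fold change of -0.16. Of the 27 without it, 10 were called lower and 4 higher, with a median of -0.05. In the other genes tested, 41.2% were called lower both with and without these letters. From 130 bases before to 20 after the start, *Rpl37a*, *Rpl7a*, *Rpl36a* and *Rps15*, among the largest falls, lacked CCGGAA. The rest of the scored window is not given gene by gene, and no promoter was at hand for *Rpl3*. The shorter core GGAA or its reverse complement did occur in these stretches. A match is a description of letters and does not show that a factor binds there.

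Windows from 130 bases before to 20 after the RefSeq start are given for 3 of the largest falls without CCGGAA there (*Rpl37a*, *Rpl36a*, *Rps15*). They are also given for a pair of falls with it at the start (*Rpl11*, *Rps27*) and for a rise with it upstream (*Rps2*). Capitals mark CCGGAA or its reverse complement, CTTTC, AAGATGGC and TATAAA, and in *Rps27* the CTTTC after the start overlaps the ETS letters.
Rpl37a (chr1:72711130-72711279, plus strand): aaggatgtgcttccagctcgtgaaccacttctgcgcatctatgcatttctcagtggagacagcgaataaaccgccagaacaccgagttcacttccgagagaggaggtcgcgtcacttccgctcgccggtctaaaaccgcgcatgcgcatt
Rpl36a (chrX:134585524-134585673, plus strand): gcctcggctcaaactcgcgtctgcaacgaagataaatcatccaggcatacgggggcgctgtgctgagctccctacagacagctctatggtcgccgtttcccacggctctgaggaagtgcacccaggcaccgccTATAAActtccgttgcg
Rps15 (chr10:80292301-80292450, plus strand): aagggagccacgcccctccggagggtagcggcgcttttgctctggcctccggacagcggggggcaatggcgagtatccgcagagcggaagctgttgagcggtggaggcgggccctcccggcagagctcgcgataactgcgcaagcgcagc
Rpl11 (chr4:136053374-136053523, minus strand): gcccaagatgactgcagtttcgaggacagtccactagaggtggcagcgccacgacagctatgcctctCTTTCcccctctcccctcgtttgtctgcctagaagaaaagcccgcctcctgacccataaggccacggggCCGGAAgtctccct
Rps27 (chr3:90213629-90213778, minus strand): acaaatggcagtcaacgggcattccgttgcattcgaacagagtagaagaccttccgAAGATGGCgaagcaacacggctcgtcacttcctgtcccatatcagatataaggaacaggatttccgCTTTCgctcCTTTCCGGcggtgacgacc
Rps2 (chr17:24719933-24720082, plus strand): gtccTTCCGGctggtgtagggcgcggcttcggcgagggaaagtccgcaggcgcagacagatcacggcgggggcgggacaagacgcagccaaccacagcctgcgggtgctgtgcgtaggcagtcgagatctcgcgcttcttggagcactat
The start of *Rps27* sits within a stretch of pyrimidines, the feature described above for ribosomal protein mRNAs, and *Rpl11* carries CCGGAA just after its start. Among the 18 tested genes with CTTTC within 20 bases of the start, 7 were called lower (38.9%) and 3 higher with a median log2 fold change of -0.09. Among the 40 without it 22 were called lower (55.0%) and 3 higher with a median of -0.14. In the other genes tested, 46.4% were called lower with CTTTC there and 40.9% without it.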

How the data were processed

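RNA of 6 Raw264.7 libraries (3 sh-NC, 3 sh-*Etv5*) was examined, with groups and replicate numbers taken from the sample labels. The authors deposited RPKM values per gene symbol, taken from coverage tracks and not log transformed. The build is mm10 (GRCm38) according to the submitters' processing notes, the library kit was an Illumina TruSeq RNA kit, and the aligner, annotation and counting are not given in the sources used here. Reads of sequences shared between genes may thus be counted for either. Low values were not whole multiples of a step, so depth is unknown.

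Genes with at least 1 RPKM in at least 3 of the 6 libraries were compared on log2(RPKM + 1), a scale that understates changes of low genes, by limma (version 3.58.1, R 4.3.3; two-sided, no covariate, moderated variances that follow a trend with the level), and Benjamini-Hochberg adjusted p under 0.05 was called. On simulated data for this comparison (10738 genes) 39 of 100 changes of 0.25 and 100 of 100 changes of 1 on the log2 scale were called. So were 9 unchanged genes. Only these 100 and 100 genes were changed in the simulation, whereas 74.3% of all genes tested were called in the data. The Benjamini-Hochberg cutoff depends on that share, so the 39 of 100 does not give the sensitivity in the data. Annotation came from GENCODE M21, where all 82 genes matched, and promoters from RefSeq. Python 3.11.15 with pandas 2.3.3 and SciPy 1.17.1 was used for the rest.

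The genes and lists were chosen with earlier results of these data known. Named were the 4 largest rises and falls among called genes and the 3 highest and lowest levels of each subunit, genes under the filter, the stalk and further functional groups, paralog pairs, ribosomal proteins outside the symbol rule, *Etv5* and the 3 largest changes of each other list. A few of the genes that this rule covers are not reported here. *Spp1*, *Lrsam1* and the processed copies were named after their values were seen. Alternatives were other pseudocounts, filters, scalings, thresholds, eBayes without trend, a replicate block and leaving out each library. The rescaling outside the top 10 genes and the restriction to genes with little shared sequence were added after the data were seen.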

Additional observations from a re-analysis of the deposited data

How the results depend on the processing

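Of 61 named genes tested, 33 kept their call, be it lower, higher or not called, under all 18 settings, and no call turned to the opposite direction. This does not cover the sign of genes that were not called, some of which lay close to 0. The 27 falls of the large subunit became 12 and the 14 of the small subunit 4 with a minimum change of 0.25 on the log2 scale, and 3 and 4 among genes sharing at most 30% of their sequence (a choice made after seeing the data, with fewer genes tested). Leaving out 1 library gave 22 to 34 and 11 to 17 falls. The 4 rises of the large subunit became 1 without the trend, without the filter and after rescaling to the same sum with or without the ribosomal protein genes. They became 1 also at an adjusted p under 0.01 and among genes within the 30% limit. They became 2 after quantile normalization, 0 with the minimum change, and 1 to 4 with 1 library left out. The 3 rises of the small subunit became 1 after rescaling outside the ribosomal protein genes and among genes within the 30% limit. They became 0 with the minimum change, and 2 to 4 with 1 library left out. The median log2 fold change of the large and small subunit moved to -0.21 and -0.17 after rescaling to the same sum and to -0.23 and -0.18 after rescaling outside the ribosomal protein genes, while that of all genes tested moved from -0.05 to -0.10 and -0.12. Among genes within the 30% limit the median of the large subunit was -0.0643. The difference of this median from that of the small subunit changed sign, from -0.0475 to 0.0368. The difference in the summed ratio of large over small changed sign to -0.00456 without the 3 most abundant members. Except where the setting itself leaves fewer genes, the cause of these changes was not tested.

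Replicate numbers did not pair the libraries, as deviations of same-numbered libraries correlated at 0.0739, -0.071 and -0.0352. With the number as a block, 27 genes of the large subunit were lower and 3 higher, and 14 and 3 of the small subunit. The call of *Rpl24* was lost (limma adjusted p = 0.0709) and *Rpsa* and *Rps3a1* passed (0.0362 and 0.0281). Depth is unknown, and levels of genes with processed copies are limited by how shared reads were assigned.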
